A study of Mus musculus with 66 samples.

Results

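RNA levels 30 minutes after release from mitotic arrest were compared between mouse embryonic stem cells with auxin and without auxin. Both arms are the same E14Tg2a derivative, of 129/Ola genotype, in which auxin brings about degradation of the nuclear receptors Esrrb and Nr5a2. Each arm is given as the mean of 3 libraries, so 6 libraries lie behind the comparison. The genes compared are all those with at least 1 TPM (an RNA level scaled for gene length and library size) in any of the 18 group columns of the table, and they number 8999 of 13957. Titles of the samples name the arm, as the labelled treatment is the control one in both. How long auxin was present is not given in the sources used here. No line without degradable receptors was treated with auxin among the groups described, so effects of auxin itself, of losing Esrrb and of losing Nr5a2 cannot be told apart.

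The study as a whole holds 66 libraries. The RNA-seq makes 18 groups of 3, with auxin and without auxin in asynchronous cells, in cells arrested in mitosis and at 7 times after release. The other 12 libraries are input and Nr5a2 ChIP in interphase and in mitosis, from wild-type E14Tg2a cells. Whether libraries of 1 group are separate cultures is not stated.

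During mitosis chromosomes condense and most transcription stops, and it resumes as cells leave mitosis. Some transcription factors keep part of their binding on mitotic chromosomes, which is known as mitotic bookmarking. Esrrb and Nr5a2 are orphan nuclear receptors that bind related DNA elements and belong to the network that keeps mouse embryonic stem cells in the naive pluripotent state, with Klf2, Klf4, Tfcp2l1, Nanog and others. Leukaemia inhibitory factor (LIF) sustains the same state through the JAK kinases and Stat3.

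Esrrb binds an extended half-site, TCAAGGTCA, whose core is AAGGTCA, and CAAGGCCA is a form known for Nr5a2. These letters were searched on both strands of RefSeq promoters, from 250 bases before to 50 bases after the start (GRCm38.p6). The shorter AAGGTCA lies within TCAAGGTCA, so a match to the longer is also a match to the core. The promoters below belong to all the genes with a match among the 20 lowest differences of the comparison and the naive pluripotency genes. Capitals mark the match, which reads TGACCTT where AAGGTCA lies on the opposite strand.
Pim3: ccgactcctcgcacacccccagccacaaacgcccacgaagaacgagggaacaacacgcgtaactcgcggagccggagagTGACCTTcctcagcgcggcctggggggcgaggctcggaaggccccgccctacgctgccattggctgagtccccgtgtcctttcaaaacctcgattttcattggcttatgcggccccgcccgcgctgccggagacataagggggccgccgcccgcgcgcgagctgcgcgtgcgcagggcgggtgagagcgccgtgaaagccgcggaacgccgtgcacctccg
Atp5k: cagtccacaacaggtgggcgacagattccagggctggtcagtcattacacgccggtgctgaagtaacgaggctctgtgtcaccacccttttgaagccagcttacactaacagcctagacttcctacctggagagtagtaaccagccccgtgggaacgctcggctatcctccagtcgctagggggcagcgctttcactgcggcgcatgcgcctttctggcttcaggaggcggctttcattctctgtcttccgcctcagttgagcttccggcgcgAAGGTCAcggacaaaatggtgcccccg
Zfp42: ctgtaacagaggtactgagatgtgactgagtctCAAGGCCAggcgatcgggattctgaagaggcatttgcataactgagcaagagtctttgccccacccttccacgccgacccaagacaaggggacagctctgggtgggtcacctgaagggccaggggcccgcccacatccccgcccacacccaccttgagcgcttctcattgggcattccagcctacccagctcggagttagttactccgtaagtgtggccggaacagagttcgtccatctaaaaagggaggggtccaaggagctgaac
Lifr: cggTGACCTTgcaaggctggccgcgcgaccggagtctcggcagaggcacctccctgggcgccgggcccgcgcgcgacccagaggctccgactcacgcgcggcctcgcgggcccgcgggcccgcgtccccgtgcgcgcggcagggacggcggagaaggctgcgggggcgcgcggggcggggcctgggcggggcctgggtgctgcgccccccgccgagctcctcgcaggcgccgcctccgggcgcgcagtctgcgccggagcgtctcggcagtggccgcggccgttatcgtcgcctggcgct

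The Pim3 promoter is chr15:88861944-88862243 on the plus strand, with its match 171 bases before the start and no deposited Nr5a2 peak over the window. The Atp5k promoter is chr5:108434350-108434649 on the minus strand, with its match 24 bases after the start and 1 Nr5a2 peak of the deposited class L over it. For Zfp42 the window is chr8:43306960-43307259 on the minus strand, with its match 217 bases before the start and 1 peak of class eB. For Lifr it is chr15:7129322-7129621 on the plus strand, with its match 247 bases before the start and no peak. What the class codes stand for is not stated. The core AAGGTCA was found in 4.72% of the 32851 promoters in the table, in 3.66% of the 7266 matched genes of the comparison, in 2 of 17 promoters among the 20 lowest genes and in 1 of 27 naive promoters. CAAGGCCA was found in 2.40% of all promoters and in 1 of 27 naive promoters. TCAAGGTCA was found in 0.423% of all promoters and in 0 of the 27.

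The listed genes summed to 18221 TPM with auxin and 17334 TPM without auxin at 30 minutes. Over all genes the median difference, as log2(TPM + 1) with auxin minus without auxin, was 0.05, and 6320 genes (70.2%) were higher with auxin before centring. All differences below are centred on that median unless stated, so they are relative to the typical gene, and fold changes of low genes are understated by the added 1. Because each group is 1 column, no value has a replicate spread, no test was possible and the depth is unknown. In bulk RNA, fewer cells of a type and less RNA per cell cannot be told apart. Embryonic stem cell markers summed to 39.8 TPM with auxin and 44.6 TPM without auxin, with all 7 listed markers above 0. Fibroblast markers summed to 4.09 TPM with auxin and 4.05 TPM without auxin, mostly Fn1, with Col1a1 at 0.027 TPM with auxin and 0.014 TPM without auxin. Marker sums of primitive endoderm, trophectoderm and 2-cell-like cells were each at most 0.213 TPM in either arm.

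Most genes differed little, and the genes past a fold threshold were mostly lower with auxin. The central 95% of centred differences ran from -0.28 to 0.18 on the log2 scale. At 1.5-fold, 19 genes were lower with auxin (0.211% of 8999) and 4 were higher (0.0444%). At 1.2-fold, 273 were lower (3.03%) and 50 were higher (0.556%). Without centring the 1.2-fold counts were 154 lower and 131 higher. They were 244 lower and 57 higher with the columns scaled to equal totals and no centring, and 254 lower and 58 higher after quantile normalization. In mitosis the same 1.2-fold counts were 130 lower (1.44%) and 41 higher (0.456%), at 20 minutes 114 lower (1.27%) and 76 higher (0.845%), and at 40 minutes 511 lower (5.68%) and 196 higher (2.18%). The last gene inside the 1.5-fold line was Rps15 at -0.59, and the first outside it was Igflr1 at -0.58. On the higher side 1700047I17Rik2 at 0.66 was the last inside and Rps13 at 0.50 the first outside.

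**Figure D1:**
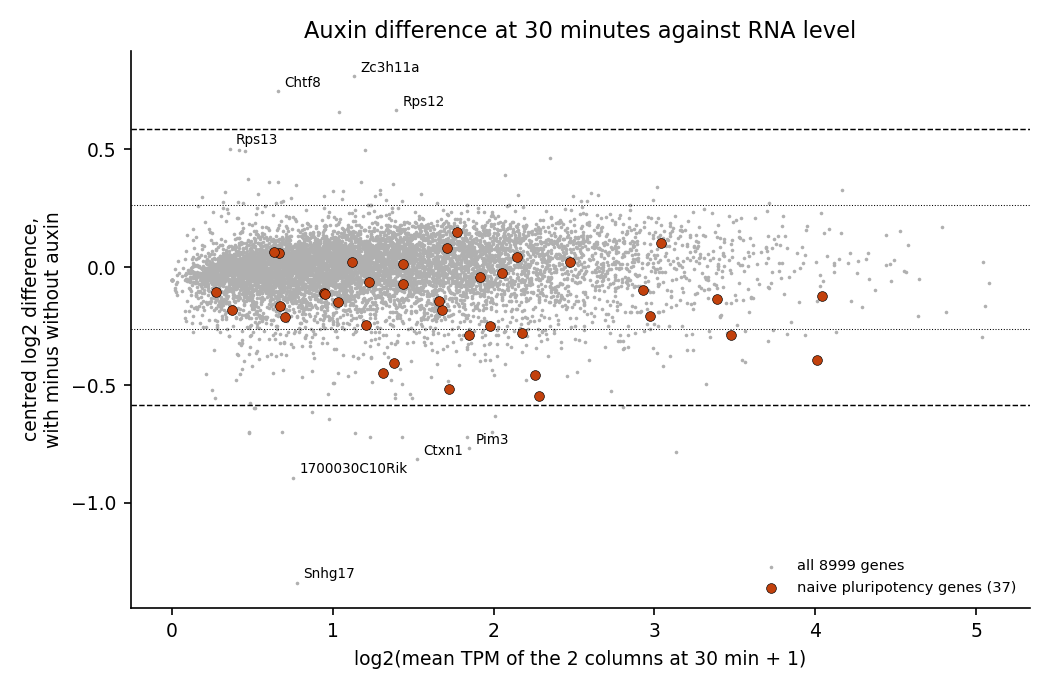
Centred log2 difference at 30 minutes (with auxin minus without auxin, vertical axis) against log2(mean TPM of both columns + 1) (horizontal axis) for 8999 genes in grey and 37 naive pluripotency genes in orange. Dashed lines mark 1.5-fold and dotted lines 1.2-fold, and no naive pluripotency gene lies above the upper dotted line while 9 lie below the lower one.

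The lowest genes included a kinase of the LIF pathway, regulators of RNA and a protein of the ribosome. Pim3, a serine/threonine kinase gene and a known target of Stat3, stood at 1.72 TPM with auxin and 3.47 TPM without auxin (difference -0.77). Its difference was -0.25 in mitosis, 0.13 at 20 minutes and -0.70 at 40 minutes, so at 20 minutes the arm with auxin was the higher one. Zc3h12a, which encodes the endoribonuclease Regnase-1 that degrades inflammatory transcripts, stood at 0.813 TPM with auxin and 1.88 TPM without auxin (-0.72).

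Irf2bp2, a corepressor partner of the interferon regulatory factor Irf2, stood at 0.714 TPM with auxin and 1.69 TPM without auxin (-0.71). Rpp25l, related to a protein subunit of ribonuclease P, stood at 1.75 TPM with auxin and 3.37 TPM without auxin (-0.72). Marcksl1, an actin-binding protein gene, stood at 2.23 TPM with auxin and 3.81 TPM without auxin (-0.63). Of these, Irf2bp2 and Marcksl1 were further apart at 40 minutes (-0.90 and -0.94), whereas Rpp25l was at 0.14 there.

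Rps15, a protein of the small ribosomal subunit, stood at 4.70 TPM with auxin and 7.30 TPM without auxin (-0.59). Ribosomal protein genes have many near-identical pseudogene copies, so the split of their reads is uncertain. Atp5k, a subunit of ATP synthase whose promoter is printed above, stood at 0.256 TPM with auxin and 0.963 TPM without auxin (-0.70). The long noncoding RNA Snhg17, a host of small nucleolar RNAs, was listed at 0 with auxin and at 1.43 TPM without auxin. With auxin Snhg17 was at 0 at every stage. Without auxin it was at 0 in mitosis and at 20 minutes, at 1.80 TPM at 40 minutes and at 1.35 TPM at 60 minutes. In the same arm it was at 0 at 50, 90 and 120 minutes and at 0.035 TPM in asynchronous cells. Its level without auxin thus went on and off between stages, and the cause was not tested.

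Of the 23 genes past 1.5-fold in either direction, 3 kept the sign of their difference at all 9 stages, all lower with auxin. They were Zc3h12a, Ctxn1 and Gm38509. Ctxn1, which encodes the membrane protein cortexin (chr8:4257646-4259274), stood at 1.14 TPM with auxin and 2.62 TPM without auxin (-0.81), against -0.32 in mitosis, -0.14 at 20 minutes and -0.28 at 40 minutes. Gm38509, a predicted gene at chr3:34772075-34782346, stood at 2.10 TPM with auxin and 3.85 TPM without auxin (-0.70), and its difference was -0.63 in mitosis and -1.40 in asynchronous cells. Zc3h12a lies at chr4:125118414-125127881, and its difference was -0.45 in mitosis and -0.52 in asynchronous cells. For all 3 genes the arms were thus apart in mitosis, before release, and Ctxn1 and Zc3h12a were further apart at 30 minutes than at any other stage. All 3 were picked by their difference at 30 minutes, which favours that stage. For Zc3h12a the difference at 40 minutes was -0.67, against -0.72 at 30 minutes.

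The highest genes were few, and most were low in level, as were most of the lowest genes. The median level was 1.12 TPM for the 20 highest genes and 1.09 TPM for the 20 lowest, against 1.19 TPM for all genes. Zc3h11a, a zinc finger protein of messenger RNA export, stood at 1.83 TPM with auxin and 0.556 TPM without auxin (0.81). Chtf8, a subunit of an alternative clamp loader of DNA replication, stood at 1.01 TPM with auxin and 0.155 TPM without auxin (0.75). Rps12, of the small ribosomal subunit, stood at 2.28 TPM with auxin and 0.989 TPM without auxin (0.67). At 40 minutes Chtf8 was at -1.99 and Rps12 at -0.62, the opposite side, while Zc3h11a was at 0.26.

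Crebzf, a basic leucine zipper factor, was among the 20 highest and the most abundant of them. It stood at 19.3 TPM with auxin and 14.6 TPM without auxin (0.33), and it was above the stage median at all 9 stages, up to 0.52 at 40 minutes. Lime1, an adaptor protein gene, stood at 5.01 TPM with auxin and 3.20 TPM without auxin (0.46), with -0.15 at 20 minutes and 0.55 at 40 minutes. Rbm7, a component of the nuclear exosome targeting complex, stood at 1.96 TPM with auxin and 1.24 TPM without auxin (0.35).

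**Figure D2:**
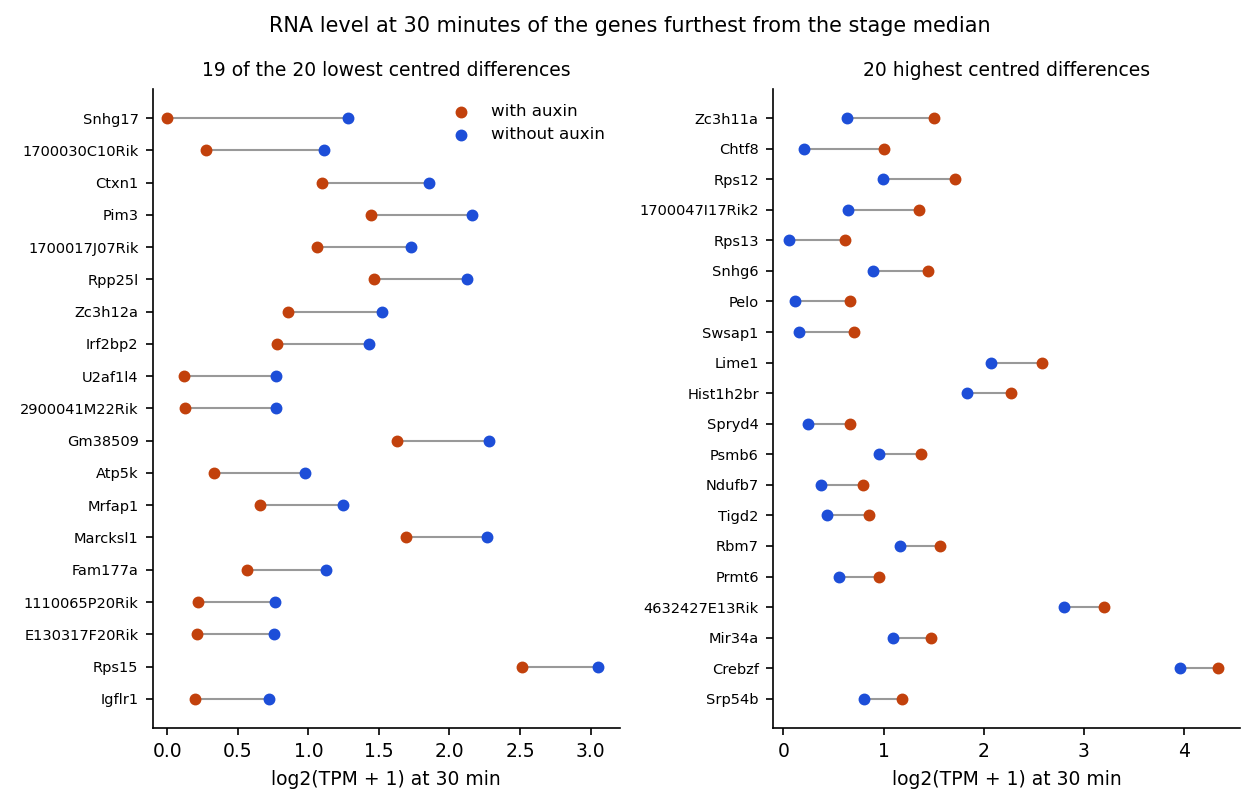
RNA level at 30 minutes, as log2(TPM + 1) on the horizontal axis, of 19 of the 20 genes with the lowest and the 20 with the highest centred difference, 1 gene per line, with auxin in orange and without auxin in blue, each point the mean of 3 libraries. Snhg17 has its orange point at 0, and Crebzf on the right is the most abundant gene of both panels with 19.3 TPM with auxin and 14.6 TPM without auxin.

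Messenger RNA of neither degraded receptor was past 1.2-fold at 30 minutes, and RNA does not report the protein that auxin removes. Esrrb stood at 1.70 TPM with auxin and 1.73 TPM without auxin (-0.07), and its difference stayed between -0.12 and -0.06 from mitosis to 90 minutes. Esrrb was further down at 120 minutes (-0.27) and in asynchronous cells (-0.42). Nr5a2 stood at 2.66 TPM with auxin and 2.17 TPM without auxin (0.15), the highest difference of all naive pluripotency genes at this time. Later values of Nr5a2 were -0.06 at 50 minutes, then -0.23 by 60 and -0.28 by 90 minutes.

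Naive pluripotency genes were lower with auxin in most cases. Of 40 genes listed, 37 were in the comparison, since Prdm14 and Fgf4 stayed under 1 TPM and Sox2 was not analysed here. Of the 37, 28 were below the stage median and 9 above it, 9 were 1.2-fold lower (24.3%, against 3.03% of all genes) and 0 were 1.2-fold higher (against 0.556%). Members were chosen with earlier results of these data known, and the part of that choice in the excess was not tested. The authors' own calls, described below, mark 28 of the 37 as lower and 1 as higher, against 9.46% and 8.52% of all genes. The list's median difference was -0.14, or -0.08 without centring, when 26 members were below 0 and 11 above. In mitosis the median was -0.11 and at 20 minutes -0.10, so most of the shift seen at 30 minutes was there before and at the start of the release. Between mitosis and 30 minutes 19 of the 37 genes moved lower and 18 higher relative to the stage median.

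Utf1, a chromatin factor of undifferentiated cells, stood at 3.04 TPM with auxin and 4.69 TPM without auxin (-0.55). Jam2, a junctional adhesion molecule, stood at 1.78 TPM with auxin and 2.83 TPM without auxin (-0.52). Tfcp2l1, a transcription factor of the naive network and a known Esrrb target, stood at 1.15 TPM with auxin and 1.83 TPM without auxin (-0.45). In mitosis these 3 genes were already at -0.79, -0.60 and -0.46.

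Klf2, a Krüppel-like factor that helps to hold the naive state, had another course. It stood at 3.11 TPM with auxin and 4.44 TPM without auxin at 30 minutes (-0.46), against -0.11 in mitosis, -0.04 at 20 minutes and -0.36 at 40 minutes. Tcl1, a cofactor of the kinase Akt, stood at 1.29 TPM with auxin and 1.92 TPM without auxin (-0.40), against -0.29 in mitosis and -0.18 at 20 minutes. Mybl2, a cell cycle transcription factor abundant in these cells, stood at 13.2 TPM with auxin and 17.01 TPM without auxin (-0.39).

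Nanog, a homeodomain factor of the core network, stood at 2.31 TPM with auxin and 2.89 TPM without auxin (-0.29), against -0.31 in mitosis, -0.14 at 20 minutes and -0.80 by 90 minutes. Tdh, the threonine dehydrogenase of stem cell metabolism, was at -0.29 and Mycn, a Myc family factor, at -0.28, which completes the 9 genes past 1.2-fold. Pou5f1, which encodes Oct4, stood at 6.43 TPM with auxin and 7.26 TPM without auxin (-0.21). Zfp42, the marker also known as Rex1, stood at 15.1 TPM with auxin and 15.9 TPM without auxin (-0.12), and Lifr, a receptor subunit for LIF, stood at 0.889 TPM with auxin and 0.965 TPM without auxin (-0.11). The highest after Nr5a2 were Rif1 at 0.10, Stat3 at 0.08 and Myc at 0.07.

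Later in the release the naive genes were further below. The list's median was -0.14 at 40 minutes and -0.17 at 50 minutes. It was -0.23 by 60 minutes, -0.28 by 90 and -0.35 by 120 minutes, and -0.24 in asynchronous cells. At 120 minutes 33 of the 37 were lower than at 30 minutes, and 27 were 1.2-fold lower (against 4.36% of all genes). The part of the choice of members in these counts was not tested either. Dppa5a, a small RNA-binding protein gene of these cells, was at -0.14 at 30 minutes, -0.82 at 40 minutes and -0.45 at 50 minutes, then -1.09 by 120 minutes. All 37 had at least 1 Nr5a2 peak within the gene or 10 kb, against 71.9% of all genes.

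**Figure D3:**
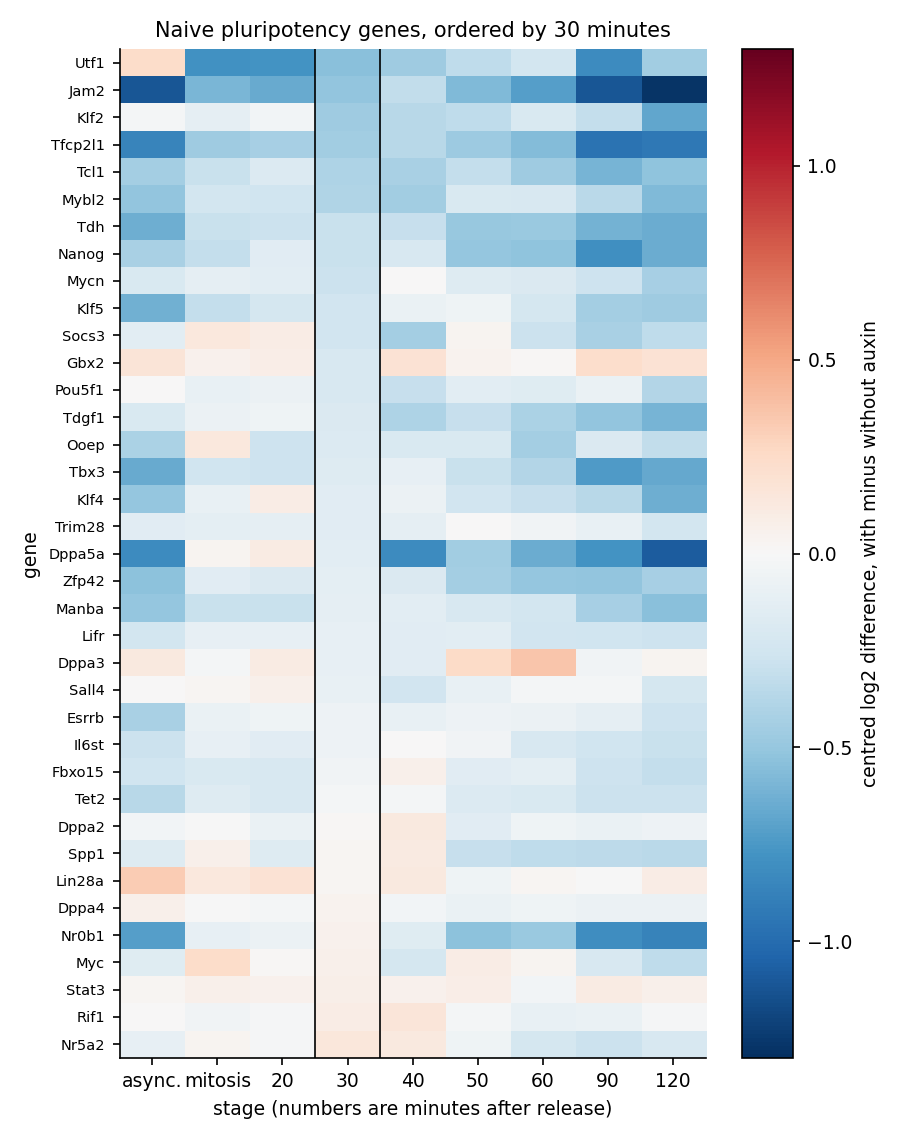
Centred log2 difference (with auxin minus without auxin, colour) of the 37 naive pluripotency genes (rows, ordered by their value at 30 minutes) at the 9 stages (columns, numbers in minutes after release, black lines around 30 minutes). Blue is lower with auxin, and 28 of 37 genes are blue at 30 minutes while 33 of 37 are at 120 minutes.

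Of 15 members of the LIF pathway, 10 were below the stage median and 5 above, against 8 and 7 without centring. The members 1.2-fold lower were Pim3, Pim1 and Socs1, or 3 of 15, against 3.03% of all genes, and 0 were 1.2-fold higher. Pim1, a kinase related to Pim3, stood at 1.29 TPM with auxin and 2.10 TPM without auxin (-0.49). Socs1, a suppressor of cytokine signalling, stood at 0.506 TPM with auxin and 0.772 TPM without auxin (-0.29). Another suppressor, Socs2, did not reach 1.2-fold, with 3.13 TPM with auxin and 2.34 TPM without auxin (0.25), and it was above the stage median at all 9 stages. The list's median was -0.06 at 30 minutes (0.00 without centring), 0.04 in mitosis and 0.03 at 20 minutes.

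Enzymes of glycolysis were mostly lower with auxin, 18 of 20 below the stage median, with a median of -0.13 (-0.07 without centring). Those 1.2-fold lower (2 of 20, against 3.03% of all genes) were Ldhb, a lactate dehydrogenase subunit, with 0.976 TPM with auxin and 1.48 TPM without auxin (-0.38), and Gpi1, glucose-6-phosphate isomerase, with 2.71 TPM with auxin and 3.37 TPM without auxin (-0.29). Both were below at all 9 stages, and the list's median was -0.06 in mitosis and -0.10 at 20 minutes. Oxidative phosphorylation had 27 of 36 members below and a median of -0.05, and without centring 17 of 36 below and a median of 0.00. Its 2 members 1.2-fold lower (5.56%, near the 3.03% of all genes) were the cytochrome c oxidase subunits Cox6a1 (-0.34) and Cox4i1 (-0.28).

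Early-response and p53 target genes held single low members. Of 14 immediate early genes 9 were below and 5 above, with a median of -0.06, against 7 and 7 and a median of 0.00 without centring. Among them Nr4a1, an orphan nuclear receptor, was at -0.35, with 1.89 TPM with auxin and 2.55 TPM without auxin. This gene was at -0.09 in mitosis and 0.10 at 20 minutes, then at -0.42 by 40 and -0.01 by 50 minutes. Of 19 p53 response genes 10 were below and 9 above. Among them Bbc3, which encodes the apoptosis inducer Puma, was at -0.33, while Mdm4 and Ccng1, other parts of the p53 circuit, were each at 0.21 and above at all 9 stages. The p53 list's median of -0.04 became 0.01 without centring, 0.00 after quantile normalization of the columns and 0.00 after scaling them to equal totals.

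The machinery of RNA polymerase II was mostly above the stage median, 22 of 27 members, with a median of 0.06. In mitosis that median was 0.01 and at 20 minutes 0.00, and it was 0.05 at 40 minutes and -0.01 at 60 minutes. Taf15, an RNA-binding partner of the transcription factor TFIID, was highest with 12.5 TPM with auxin and 10.2 TPM without auxin (0.21). Of the 5 members below, Cdk9, the kinase that releases paused polymerase, was the only one 1.2-fold lower (1 of 27, against 3.03% of all genes), and it stood at 3.62 TPM with auxin and 4.42 TPM without auxin (-0.29). Its difference was 0.02 in mitosis and 0.08 at 20 minutes, then -0.36 by 40 and -0.01 by 50 minutes. Taf7, a TFIID subunit, was at -0.22 and the polymerase subunit Polr2e at -0.20. Chromatin regulators had 17 of 28 members above and a median of 0.06, with Zfp57, which guards imprinted genes, at -0.28 and Kmt2b, a histone H3 lysine methyltransferase, at -0.28. Of 9 xenobiotic response genes, listed as a check on auxin as a chemical, 7 were above and 2 below, with a median of 0.08, and Tiparp was furthest at 0.13.

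Cell division genes of G2 and mitosis had 16 of 39 members below and a median of 0.01, and replication genes of G1/S had 20 of 41 below and a median of 0.01, with Cdk4 at -0.33 and E2f2 at -0.28. Cholesterol and fatty acid synthesis had 18 of 30 below, heat shock 14 of 22, ribosome biogenesis 15 of 27, with the polymerase I factor Ubtf at -0.37. Among signalling lists, FGF and ERK had 11 of 22 below, with the feedback inhibitors Spry2 at -0.31 and Spry1 at -0.29, Nodal and TGF-beta 12 of 18, and Wnt 10 of 17. Nuclear receptors and cofactors had 15 of 24 below, with Nr2f6 at -0.29 and Esrra, a relative of Esrrb, at -0.27. Formative and primed genes had 7 of 12 below and a median of -0.05, with Spry2 again the member 1.2-fold lower, and 6 of 12 were below without centring. The medians of the cholesterol, heat shock, ribosome biogenesis, FGF, Nodal, Wnt and nuclear receptor lists lay between -0.03 and 0.00 and were between 0.02 and 0.05 without centring. The FGF, Nodal, Wnt and nuclear receptor medians were also above 0 with the columns scaled to equal totals, so none of these lists has a direction that holds under every scaling.

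Lineage lists had few measurable members. All 3 trophectoderm members were below, with Tfap2c, which is also a regulator in embryonic stem cells, at 0.632 TPM with auxin and 1.06 TPM without auxin (-0.39) and below at all 9 stages. Of 4 germ layer genes 2 were below, with the neuronal tubulin Tubb3 at -0.29. Primitive endoderm had 1 of 3 below, fibroblast markers 1 of 2, and the 2-cell-like and histone lists 1 member each, at 0.09 and 0.00. No list held a member 1.2-fold higher, and only 0.556% of all genes were, so lists of these sizes would hold few.

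Relative to their own mitotic column, the arms had moved little by 30 minutes. With auxin the median log2 ratio of 30 minutes over mitosis was 0.03, with 64.4% of genes above mitosis. Without auxin it was -0.01, with 46.7% above. At least 1.5-fold above mitosis, uncentred, were 72 genes with auxin (0.800% of all) and 88 without auxin (0.978%), and 32 genes were in both, 44.4% of the set with auxin and 36.4% of the set without auxin. Only with auxin 40 genes passed that line, which lies at 0.58 on the log2 scale, and only without auxin 56 did. Those 56 had a median log2 ratio of 0.41 with auxin. By 40 minutes 1669 genes with auxin (18.5%) and 1450 without auxin (16.1%) were past that line. Pim3 was 0.35 above its mitotic level with auxin and 0.82 above it without auxin and Irf2bp2 0.10 with auxin and 0.80 without auxin. Both genes were picked by their difference at 30 minutes, which holds the same 30-minute values. Their smaller rise with auxin is thus partly set by that choice.

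The difference at 30 minutes followed gene span, the distance from the first to the last annotated base. In quintiles of span with medians of 4616, 11846, 21835, 39466 and 95404 bp, the median differences were -0.06, -0.03, -0.01, 0.02 and 0.04. Genes 1.2-fold lower made up 9.73% of the shortest quintile (175 of 1799), against 9 of 1799 in the longest. Genes 1.2-fold higher were also more frequent in the shortest quintile, at 1.61% (29 of 1799) against 3 of 1799 in the longest. Below the stage median were 69.3% of the shortest quintile and 26.4% of the longest. The same order of medians was seen at 40 minutes, with -0.08 in the shortest and 0.04 in the longest quintile. It was also seen, with smaller values, in mitosis (-0.02 and 0.01), at 50 minutes (-0.02 and 0.02) and by 120 minutes (-0.04 and 0.02). By 20 and 60 minutes it was not, with 0.01 in the shortest and 0.00 in the longest quintile each time. Without centring, the shortest quintile was at -0.01 and the longest at 0.10. With the columns scaled to equal totals and no centring the 2 values were -0.04 and 0.06, and after quantile normalization -0.05 and 0.05, so the zero point depends on the scaling and the order of these 2 quintiles does not.

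The ratio to mitosis shows both arms for these quintiles. In the shortest quintile the median log2 ratio of 30 minutes over mitosis was 0.11 with auxin and 0.12 without auxin. In the longest quintile it was -0.02 with auxin and -0.10 without auxin. The 273 genes 1.2-fold lower had a median span of 5234 bp and the 50 higher ones 5323 bp, against 21832 bp for all genes. Naive pluripotency genes had a median span of 10558 bp, and centred within their own quintile of span their median was -0.11. Centred in that way, the median was -0.10 for glycolysis, -0.08 for the LIF pathway, -0.02 for oxidative phosphorylation and -0.01 for immediate early genes. It was 0.01 for formative and primed genes, 0.02 for chromatin regulators and 0.04 for the RNA polymerase II machinery.

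**Figure D4:**
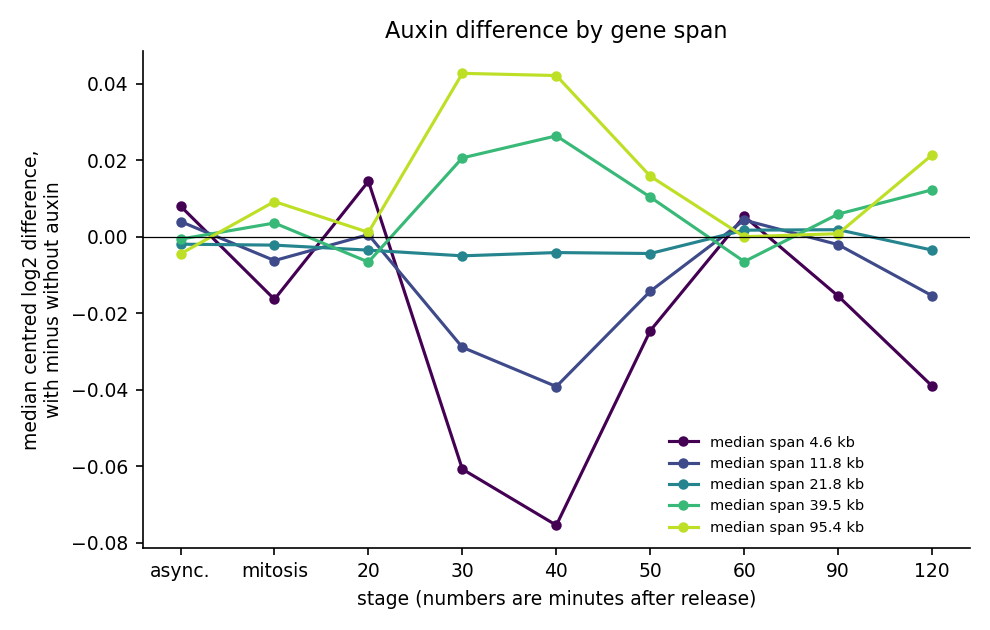
Median centred log2 difference (with auxin minus without auxin, vertical axis) of 5 groups of genes split by annotated span, at the 9 stages (horizontal axis, numbers in minutes after release), 1 line per group. The lines are furthest apart at 30 and 40 minutes, when the shortest genes are at -0.06 and -0.08 and the longest at 0.04 at both times. They keep that order less far apart at 50 minutes (-0.02 and 0.02) and 120 minutes (-0.04 and 0.02), and do not at 20 and 60 minutes.

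Relative to the stage median, genes that come back early without auxin were lower with auxin, and by less within quintiles of span. In quintiles by the change from mitosis to 40 minutes in the arm without auxin, columns that the 30-minute comparison does not use, the median difference ran from 0.04 in the quintile with the smallest gain to -0.05 in the quintile that gained most. Centring had taken off the stage median of 0.05, so the last value does not show these genes lower with auxin before centring. The share 1.2-fold lower was 1.61% in the first quintile and 7.50% in the last. Top gainers were also short, with a median span of 8174 bp against 60408 bp. Within the shortest quintile of span, 882 top gainers had a median of -0.08 and the other 917 genes -0.05, and in the next quintile 505 top gainers had -0.04 and the other 1294 genes -0.03. In the third quintile both values were near 0, at -0.01 and 0.00, and in the fourth 99 top gainers were at 0.03 and the other 1699 genes at 0.02. In the longest quintile 9 top gainers were at 0.07 and the other 1790 genes at 0.04.

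Nr5a2 peaks were deposited for wild-type cells as 1 list of 35266. Genes with at least 1 peak within the gene or 10 kb had a median difference of -0.01 (6469 genes), and those with none 0.01 (2523 genes). The median was 0.00 with 1 peak, -0.01 with 2, -0.01 with 3 to 4, -0.02 with 5 to 9 and -0.02 with 10 or more peaks. Other stages had a larger fall between 0 peaks and 10 or more. It went from 0.01 to -0.04 in mitosis, from 0.01 to -0.07 at 120 minutes and from 0.02 to -0.07 in asynchronous cells. Long genes hold more peaks, with a median span of 17103 bp at 0 peaks and 173620 bp at 10 or more. Centred within quintiles of span, the median went further down, with 0.02 at 0 peaks, -0.04 at 5 to 9 and -0.06 at 10 or more. Genes with 5 or more peaks stood below those with none in each of the 5 quintiles, for example -0.11 against -0.05 in the shortest quintile, with 47 and 616 genes, and 0.01 against 0.06 in the longest, with 474 and 259 genes. Centred on all genes, the peak classes had medians of 0.00 (L), -0.02 (eB), -0.01 (dB) and -0.01 (nB).

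**Figure D5:**
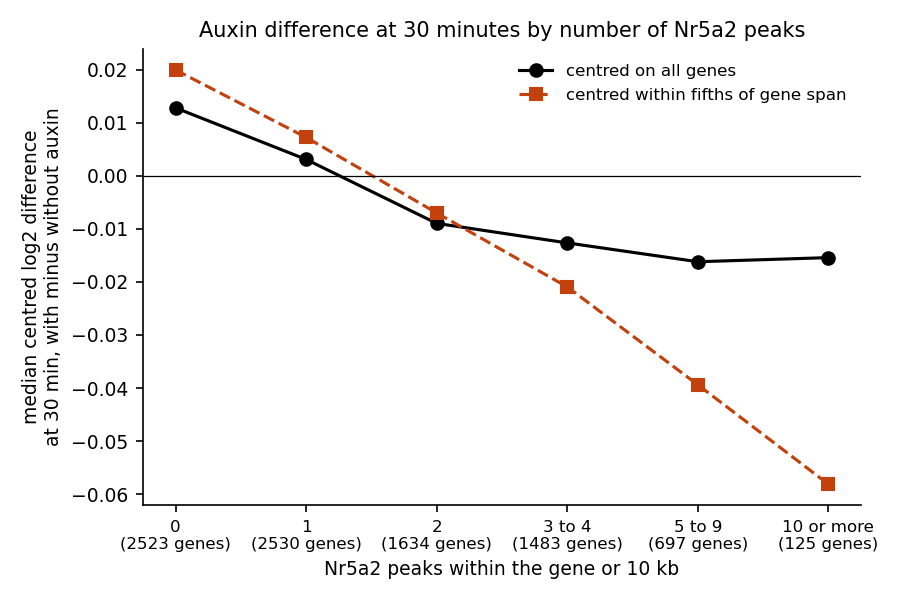
Median centred log2 difference at 30 minutes (with auxin minus without auxin, vertical axis) by the number of deposited Nr5a2 peaks within the gene or 10 kb (horizontal axis, number of genes in brackets). Black circles are centred on all genes and orange squares within quintiles of gene span, and the orange line goes down to -0.06 at 10 or more peaks where the black line stays at -0.02.

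The authors' deposited table gives each gene a call of lower, higher or neither. The stages behind the calls are not stated and may include 30 minutes, so their match with 30 minutes is a description. Of 851 genes it calls lower (9.46% of those compared), 748 (87.9%) were below the stage median at 30 minutes, with a median of -0.10. Of 767 it calls higher (8.52%), 664 (86.6%) were above, with a median of 0.08. Of the 7381 genes with neither call, 49.4% were below. Of the 273 genes 1.2-fold lower at 30 minutes, 108 are called lower and 3 higher in the authors' deposited table, and of the 50 genes 1.2-fold higher 15 are called higher and 0 lower. At 1.5-fold, 8 of the 19 lower genes are called lower and 0 of the 4 higher genes are called, in the authors' deposited table. Genes it calls higher and furthest up at 30 minutes were Rbm7, Crebzf, Hax1 (0.31), Utp14b (0.31) and Tsix (0.30), the antisense RNA of the X inactivation centre.

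Set beside the other stages, 30 minutes was nearest to 40 minutes. Across genes, Spearman's rho of the centred differences was 0.66 with 40 minutes, 0.44 with 120 minutes, 0.35 with 50 minutes, 0.30 with mitosis and 0.04 with 20 minutes. These values are across 8999 genes, which are not independent replicates, and each stage has its own libraries. Of the 273 genes 1.2-fold lower at 30 minutes, 248 were below the stage median at 40 minutes and 222 by 120 minutes, 193 in mitosis and 156 by 20 minutes. Of the 50 genes 1.2-fold higher, 34 were above at 40 minutes, 32 in mitosis and 27 at 20 minutes. The shares on the same side at 40 minutes were 90.8% of the lower set and 68.0% of the higher set, and whether they differ was not tested.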

How the data were processed

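RNA was measured in total RNA, ribo-depleted, in stranded paired-end libraries, per the labels' protocols. The authors deposited TPM in a table with 1 column per group. Tripled, all 246530 nonzero entries are whole at 9 decimals, the mark of means over 3 libraries. Per the submitters' processing notes, the tools were STAR, RSEM, DESeq2, Bowtie2 and MACS2 on mm10, and no version is named. The features counted per gene are not stated, and listed genes sum to far less than the unit's total, so spliced and unspliced RNA cannot be told apart. TPM does not keep the depth of a library.

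From these TPM values, log2(TPM + 1) was computed with auxin minus without auxin and centred on the median over genes of at least 1 TPM in any of the 18 columns. No test or p-value was possible on 1 column per group, and fold thresholds of 1.5 and 1.2 describe size only. The computation was tested on simulated data. Genes were placed by symbol in RefSeq (GRCm38.p6), and of 13957 symbols 13866 matched directly, 83 through a synonym and 8 not. The authors deposited 1 list of Nr5a2 peaks, counted within the gene or 10 kb. Genes named are the degraded receptors, the naive list, the 20 lowest and 20 highest differences, up to 4 furthest members of each of the other 24 lists, the 5 furthest called by the authors in each direction, the 5 in each direction departing most from the other release times, the 8 most abundant, and genes past 1.5-fold with the same sign at all 9 stages. Of the 20 lowest, 1 gene is not reported here. Members and lists were chosen with earlier results of these data known. Quintiles by the change from mitosis to 40 minutes were chosen after seeing the data. Alternatives were pseudocounts of 0.1 and 0.5, other filters on low values, no centring, quantile normalization, equal totals, peak windows of 2 and 50 kb and, added after seeing the data, centring within quintiles of span. Python 3.11.15, NumPy 2.4.6, pandas 2.3.3, SciPy 1.17.1 and Matplotlib 3.10.9 were used.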

Additional observations from a re-analysis of the deposited data

How the results depend on the processing

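No paired analysis was possible because the table holds 1 mean column per group, and for the same reason no replicate could be left out. The count of genes 1.5-fold lower with auxin was 19, and it became 169 and 47 with pseudocounts of 0.1 and 0.5, 10 among genes of at least 1 TPM in the mean of both 30-minute columns and 9 among genes of at least 5 TPM in any column. The count 1.2-fold lower was 273, and became 971 and 539 with the smaller pseudocounts and 154 without centring. The count 1.5-fold higher was 4, and became 50 and 9 with the smaller pseudocounts. The count 1.2-fold higher was 50, and became 369 and 121 with the smaller pseudocounts, 85 with no filter, 26 and 22 with the stricter filters, 131 without centring and 85 centred within quintiles of span. In each of these settings the lower count stayed above the higher count. The naive median of -0.14 was -0.23 with a pseudocount of 0.1 and -0.082 without centring. Without centring, genes with a peak were at 0.048 and those without at 0.066, the shortest quintile at -0.0071 and the longest at 0.10, and the shortest quintile was at -0.11 with a pseudocount of 0.1. The share of called-lower genes below the median, 87.9%, was 81.1% with no filter, 71.4% without centring, 84.5% after quantile normalization and 83.0% with equal totals. The share of called-higher genes above it, 86.6%, was 92.6% and 89.6% with the smaller pseudocounts, 90.5% with no filter, 93.9% and 92.1% with the stricter filters, 97.4% without centring, 94.3% after quantile normalization, 94.8% with equal totals and 80.7% within quintiles of span. The constructions differ in their zero point or in the weight of low genes, and the cause of single changes was not tested. Changing the peak window to 2 or 50 kb moved neither peak median by more than 0.05 on the log2 scale. Unknown depth limits all genes near 1 TPM.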

Other observations

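Ribosomal protein genes were lower with auxin at 30 and 40 minutes and not at the times around them. The set was chosen after Rps15 had been seen among the lowest genes, so its counts are a description. Of 80 genes with symbols of ribosomal proteins, 66 were below the stage median at 30 minutes, with a median of -0.13. Of the 80, 20 were 1.2-fold lower, against 3.03% of all genes and 9.73% of the shortest quintile of span. Another 2 were 1.2-fold higher, against 0.556% of all genes and 1.61% of that quintile. At 40 minutes 59 were below, with a median of -0.17. At 20 minutes the median was 0.02, at 50 minutes 0.02 and at 60 minutes 0.03. In mitosis 52 were below, with a median of -0.03, and by 120 minutes 57 were, with a median of -0.04. Their median span was 3250 bp, with 73 of the 80 in the shortest quintile, and the part of span in their values was not tested. Among the most abundant genes of the table, Rpl13a stood at 29.0 TPM with auxin and 34.5 TPM without auxin (-0.30) and Rpl23 at 30.9 TPM with auxin and 33.5 TPM without auxin (-0.17), whereas Tomm20 and Nap1l1, which are not ribosomal, were at -0.07 and 0.02.

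For single genes 30 minutes lay far from the mean of the other release times, in some because of another time. Zc3h7a, a zinc finger protein gene, stood at 3.03 TPM with auxin and 3.56 TPM without auxin at 30 minutes, at 88.5 TPM with auxin and 4.10 TPM without auxin at 40 minutes, and at 12.1 TPM with auxin and 3.59 TPM without auxin in mitosis. Chtf8 stood at 0.106 TPM with auxin and 3.17 TPM without auxin at 40 minutes, and at 1.01 TPM with auxin and 0.155 TPM without auxin at 30 minutes. Rpp25l differed by -0.72 at 30 minutes and by 0.13 at 20 and 0.14 at 40 minutes. A mean of 3 libraries does not show whether 1 library carries such a value.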
